A study of Mus musculus with 50 samples.

Results

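Collagen VI and the fibril-associated collagens are matrix proteins that sit beside, and not within, the large collagen fibrils, and they were followed here across cell classes and genotypes in sections of mouse liver. The 6 members were Col6a1, Col6a2, Col6a3, Col12a1, Col14a1 and Col16a1. They were chosen by name from the 1000 gene targets of the panel, and all 6 were present in the count table. The panel held 17 further collagens, among them Col9a2 and Col9a3, which encode chains of collagen IX, also a fibril-associated collagen, and were not members.

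Livers came from C57BL/6 mice, and all mice of both groups had been given AAV8 Tbg-Cre, a virus that expresses Cre recombinase from a hepatocyte promoter, by retro-orbital injection at 6 months of age. Control mice were wild type (WT), and HIRA KO mice carried floxed Hira alleles, so that HIRA, a histone chaperone, was deleted where the promoter was active, in hepatocytes. Control alleles were not floxed. Livers were taken 12 months after injection, at 18 months of age. Transcripts were imaged in situ with the CosMx spatial platform, which reads each transcript as a spot and assigns it to a segmented cell, in 25 fields of view of each genotype. The fields of view formed 6 tissue areas, 3 Control and 3 HIRA KO, and the area was the replicate. The study's methods speak of 3 biological replicates, but no label names a mouse for an area, so p-values measure the spread between areas. In each of the 3 slide rows the Control area lay on one side and the HIRA KO area on the other, so the side of the slide and the genotype cannot be told apart. Hira itself was not among the targets, so the deletion could not be checked.

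Collagen VI is built from 3 different chains, of which Col6a1 and Col6a2 encode short chains and Col6a3 encodes a much longer chain. One chain of each kind joins into a monomer, and monomers assemble into beaded microfilaments that lie around cells and between collagen fibrils. Collagens XII, XIV and XVI, encoded by Col12a1, Col14a1 and Col16a1, belong to the fibril-associated collagens with interrupted triple helices, which bind to the surface of fibrils and connect them with other matrix. In liver, stellate cells and portal fibroblasts are the main makers of fibrillar collagens and of many matrix proteins associated with them.

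The 6 genes lie on 5 chromosomes of the mouse genome (GRCm38, GENCODE annotation). Col6a1 and Col6a2 are neighbours on chromosome 10, on the minus strand, from 76708792 to 76726168 and from 76595762 to 76623630. Col6a3 lies on the minus strand of chromosome 1, from 90765923 to 90843971. Col12a1 lies on chromosome 9 (79598991 to 79718831, minus strand), Col14a1 on chromosome 15 (55307750 to 55520803, plus strand) and Col16a1 on chromosome 4 (130047840 to 130099283, plus strand).

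The 250 bases before the start site of each collagen VI gene are shown because the 3 genes encode chains of 1 protein but are transcribed from separate promoters. Of the 3, only Col6a3 was called between genotypes, in stellate-like and mesenchymal-like cells. A difference between the chains was not established by this. The sequences are from RefSeq (GRCm38.p6), each read 5′ to 3′ on the strand of its gene, in which 4 of the 6 members matched an entry. Capitals mark the motifs searched on both strands, which were the CCAAT box, the GC box GGGCGG, the TATA box TATAAA and the purine motif GGAGGG (the last was chosen after the sequences had been read). Matches of different motifs did not overlap. The start site of Col6a1 in RefSeq, at 76726044, lies inside the gene as GENCODE draws it. Col6a1 is at chr10:76726045-76726294, Col6a2 at chr10:76623631-76623880 and Col6a3 at chr1:90843972-90844221.
Col6a1: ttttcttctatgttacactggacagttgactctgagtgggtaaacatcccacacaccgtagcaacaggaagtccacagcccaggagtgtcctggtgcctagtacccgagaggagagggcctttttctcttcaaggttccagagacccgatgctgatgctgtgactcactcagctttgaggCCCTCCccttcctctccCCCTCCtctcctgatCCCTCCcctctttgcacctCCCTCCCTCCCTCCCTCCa
Col6a2: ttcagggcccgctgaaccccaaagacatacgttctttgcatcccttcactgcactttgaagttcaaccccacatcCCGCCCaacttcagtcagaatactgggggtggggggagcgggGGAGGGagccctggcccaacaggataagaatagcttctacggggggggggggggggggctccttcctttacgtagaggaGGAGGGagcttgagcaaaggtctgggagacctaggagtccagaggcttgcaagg
Col6a3: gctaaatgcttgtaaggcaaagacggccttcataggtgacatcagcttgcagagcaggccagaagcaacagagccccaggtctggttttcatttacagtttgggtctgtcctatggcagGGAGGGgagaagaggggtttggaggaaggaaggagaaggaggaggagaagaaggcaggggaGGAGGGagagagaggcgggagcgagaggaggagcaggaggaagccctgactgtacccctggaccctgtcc
None of the 3 windows held CCAAT or TATAAA, which were found in 33.9% and 12.4% of the 32851 promoters of the same length. GGGCGG was found once, in Col6a2, against 32.7% of all promoters with at least 1 match. GGAGGG was found 7 times in Col6a1, on the opposite strand, where the 4 copies nearest the start site overlapped each other, and 2 times each in Col6a2 and Col6a3, against 35.2% of all promoters with at least 1 match. A match is a description of the letters and does not show that a factor binds.

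All 6 collagens were sparse. In the 49665 kept cells, 4216 counts were assigned to Col6a1, 4813 to Col6a2, 4317 to Col6a3, 4988 to Col12a1, 4793 to Col14a1 and 2366 to Col16a1, of 6857273 counts of all gene targets. The panel also carried 10 negative probes that match no transcript, and their totals in the same cells ran from 1107 to 3828. Over the whole tissue 5 of the members exceeded all 10 negative probes, the highest of which was not far below them, and Col16a1 exceeded only 1 of 10. No cell held more than 6 counts of any member. Every level is given here in CPM, the counts of a target scaled to a total of 1000000 counts of gene targets, beside the level of the negative probes in the same cells, and comparisons of level are made within a gene, since targets differ in how efficiently they are detected. Kept cells per area ranged from 6801 to 10171, counts per area from 718991 to 1542205 and the median count per cell from 88 to 147.

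Cell classes were taken from clusters that were made without the 6 collagens and were named from marker genes, and 9 named classes had at least 50 cells in every area. Stellate-like cells (4483, 391 to 1207 per area) were led by Dcn and Bgn, both small proteoglycans, and by the fibrillar collagen gene Col3a1. Fibroblast-like cells (789, at least 62 per area) were led by Gsn, Mgp and Dpt, and myofibroblast-like cells (994, at least 71 per area) by Acta2 and Tagln, so these last classes rest on few cells. Stellate-like, fibroblast-like and myofibroblast-like cells together are called mesenchymal-like here.

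Col14a1 was highest in stellate-like cells, and its mean there was several times that of the negative probes. Its level there was 1635, 1896 and 2368 CPM in the Control areas and 2180, 2252 and 3002 CPM in the HIRA KO areas, and all 6 values lay above every negative probe. The mean over areas was 2222 CPM ± 465 (SD, n = 6), which was 6.13 times the mean of the negative probes in the same cells. Fibroblast-like cells followed at 1338 CPM ± 289 (SD, n = 6), and Kupffer-like cells, the resident macrophages, at 813 CPM ± 89.6 (SD, n = 6). Hepatocyte-like cells came last of the 9 classes, at 467 CPM ± 33 (SD, n = 6), which was 0.994 times the mean of the negative probes and above 4 of the 10. Collagen XIV, the product of Col14a1, is a fibril-associated collagen that binds fibrils through decorin, the product of Dcn.

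**Figure D1:**
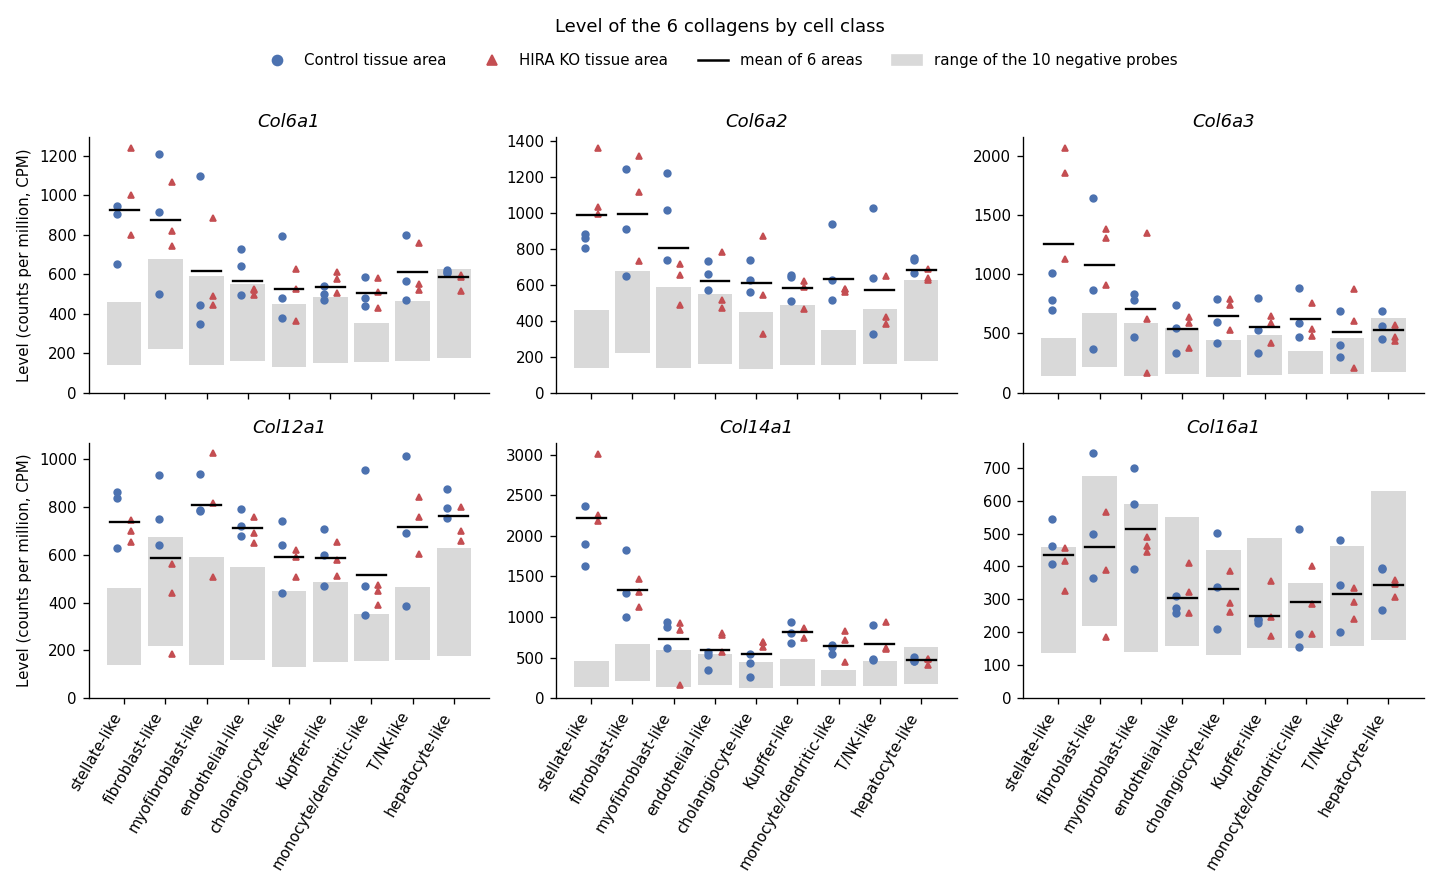
Level of each collagen in 9 cell classes, in CPM, with 1 point per tissue area (circles, Control; triangles, HIRA KO), a line for the mean of 6 areas and a grey box from the lowest to the highest of the 10 negative probes in the same cells. All members except Col16a1 stood above the box in every area of stellate-like cells, whereas the mean of Col16a1 lay within the box in every class.

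The 3 collagen VI genes also had their highest levels in stellate-like and fibroblast-like cells, but with a smaller contrast. Col6a3 averaged 1259 CPM ± 570 (SD, n = 6) in stellate-like cells, 3.47 times the negative probes, and 1080 CPM ± 454 (SD, n = 6) in fibroblast-like cells. Col6a1 averaged 924 CPM ± 199 (SD, n = 6) and 875 CPM ± 250 (SD, n = 6) in these classes. Col6a2 averaged 989 CPM ± 202 (SD, n = 6) and 996 CPM ± 274 (SD, n = 6). In stellate-like cells all 3 genes lay above every negative probe in 6 of 6 areas. In hepatocyte-like cells the level was 588 CPM for Col6a1, 685 CPM for Col6a2 and 530 CPM for Col6a3, against a mean of 470 CPM for the negative probes there. Col6a1 and Col6a3 were above the highest negative probe there in 1 of 6 areas each, and Col6a2 in 5 of 6.

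Col12a1 did not follow this order. Its level was 737 CPM ± 96.6 (SD, n = 6) in stellate-like cells and 762 CPM ± 77.1 (SD, n = 6) in hepatocyte-like cells, and its 9 class means ran from 514 to 808 CPM. Relative to the negative probes the class means of Col12a1 were 1.23 to 2.03 times as high. Col16a1 ran from 250 CPM in Kupffer-like cells to 513 CPM ± 112 (SD, n = 6) in myofibroblast-like cells, and its class means were 0.714 to 1.20 times the negative probes. In no class did its mean exceed all 10 negative probes (at most 8, in stellate-like cells), so a level above background was not detectable at this depth.

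Classes were compared within areas by an exact paired sign-flip test over the 6 areas, whose smallest possible p is 0.0312 (two-sided). Among 48 pairs of neighbours in the order of the means, 0 passed after Benjamini-Hochberg adjustment. With this smallest p and 48 tests a few pairs could not pass whatever their values, so this count says nothing of likeness. The 2 pairs at the smallest p were Col14a1 in fibroblast-like over Kupffer-like cells (log2 difference 0.69, SD 0.31, 6 of 6 areas) and Col12a1 in endothelial-like over cholangiocyte-like cells (0.29, SD 0.20, 6 of 6 areas). Stellate-like and fibroblast-like cells in particular were close for Col6a1 (log2 difference 0.10, SD 0.63, 3 of 6 areas higher in stellate-like cells), Col6a2 (fibroblast-like minus stellate-like -0.01, SD 0.53, fibroblast-like higher in 4 of 6) and Col6a3 (0.24, SD 0.80, 4 of 6). For Col14a1 the difference between them was 0.73 (SD 0.47, stellate-like higher in 5 of 6 areas, exact sign-flip test, p = 0.0625, adjusted p = 0.6).

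The wider contrast between stellate-like and hepatocyte-like cells was compared after these values had been seen. The measured level of Col14a1 was 4.61-fold higher in stellate-like cells (log2 difference 2.20, SD 0.32, from 1.80 to 2.62 in single areas). Since its level in hepatocyte-like cells was that of the negative probes, this is a ratio of measured levels that include background. Col6a3 was 2.19-fold higher (1.13, SD 0.69), Col6a1 1.54-fold (0.62, SD 0.32) and Col6a2 1.42-fold (0.51, SD 0.31). Each of the 4 was higher in stellate-like cells in 6 of 6 areas, with the smallest p that the exact sign-flip test allows, 0.0312, and an adjusted p of 0.112 over 18 such tests. Col12a1 had a log2 difference of -0.05 (SD 0.11), higher in stellate-like cells in 1 of 6 areas (exact sign-flip test, p = 0.281). Col16a1 had a log2 difference of 0.32 (SD 0.26), in 5 of 6 areas (p = 0.0625, exact).

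The share of transcripts follows class size as well as level. Stellate-like cells made up 8.85% ± 2.54 of cells and held 7.47% ± 2.78 of all gene counts (SD, n = 6). They held 23.1% ± 7.36 of Col14a1 counts, 15.1% ± 7.52 of Col6a3 counts, 10.9% ± 3.77 of Col6a1 counts and 10.6% ± 4.37 of Col6a2 counts. For Col16a1 the share was 9.48% ± 3.96 and for Col12a1 it was 7.43% ± 2.49, close to the share of all genes. Hepatocyte-like cells held 22.4% of Col14a1 counts and 34.4% of Col12a1 counts, against 32.9% of all counts. Hepatocyte-like cells held 31.3% of Col6a1 counts, 32.1% of Col6a2 counts and 28.4% of Col6a3 counts, at the low levels given above. Their share of cells ran from 11.2% to 41.8% per area, so these shares were uneven between areas. Clusters that took no name made up 22.6% of cells, from 6.97% to 35.1% per area. They held from 18.7% (Col14a1) to 27.8% (Col12a1) of the counts of a member, and 23.2% of all counts.

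**Figure D2:**
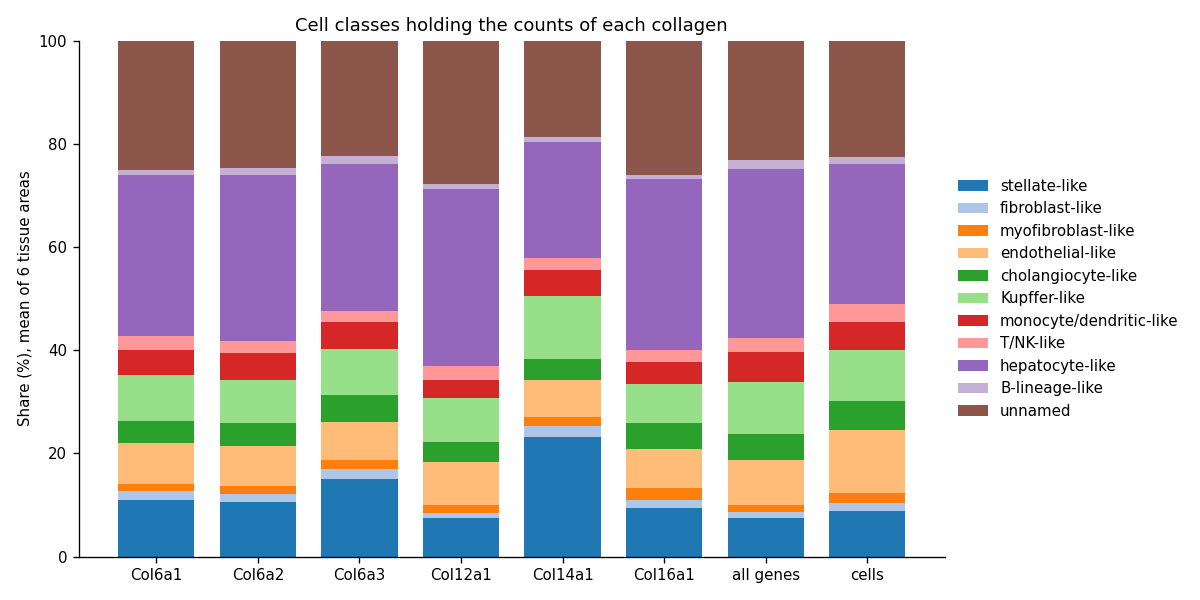
Share of the counts of each collagen, of all genes and of cells held by each cell class, in percent, as the mean of 6 tissue areas (each bar adds to the whole of the kept cells). The stellate-like segment was 23.1% for Col14a1 and 15.1% for Col6a3, against 7.47% for all genes.

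Patterns over clusters were compared by the Spearman correlation of log2(CPM + 10) over the 20 clusters, among 757 genes whose totals exceeded the highest negative probe. Clusters share areas and depth, so these are descriptions. Col14a1 was most like Bgn, which encodes biglycan (0.81), Axl, a receptor tyrosine kinase (0.80), and Itgb1, the integrin beta 1 chain of most collagen receptors (0.80). Col6a3 was most like Pdgfrb, the PDGF receptor of pericytes and stellate cells (0.78), Nupr1 (0.76) and Cyp1b1 (0.74). Col6a1 was most like Cxcl14 (0.82), Csf1 (0.81) and Ngfr (0.81), and Col6a2 was most like Sparcl1 (0.83), Ryk (0.79) and Snai2 (0.77). Col12a1 was most like Sst (0.94), Epha3 (0.91) and Fgf13 (0.90), of which Sst encodes somatostatin, a peptide of neurons and islet cells. Col16a1 was most like Sparcl1 (0.91), Ephb2 (0.89) and Col5a3 (0.82). The total of Col16a1 itself lay below the highest negative probe, so its pattern cannot be told apart from background. Between the collagen VI chains the correlation was 0.47 for Col6a1 and Col6a2, 0.50 for Col6a1 and Col6a3 and 0.56 for Col6a2 and Col6a3, below that of each with its 3 nearest genes.

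Genotypes were compared with edgeR's quasi-likelihood test on the summed counts of each area, fitted over all genes and adjusted over all of them by the Benjamini-Hochberg method. In all kept cells together, 0 of the 6 collagens passed, as did 0.200% of the 998 genes tested. None of the 6 had an unadjusted p under 0.05 there, and DESeq2 called 0 of them. Col6a3 had a log2 fold change of 0.24 (SE 0.15) and Col14a1 of 0.24 (SE 0.13). The other 4 members lay between -0.12 and 0.09. In bulk values of this kind, fewer cells of a class and fewer transcripts per cell cannot be told apart.

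Within stellate-like cells, Col6a3 was higher in HIRA KO livers. Its level was 787, 1014 and 701 CPM in the 3 Control areas (52, 46 and 58 counts) and 1861, 2066 and 1126 CPM in the 3 HIRA KO areas (187, 299 and 69 counts). Every HIRA KO area lay above every Control area, and so also above the one in its slide row. HIRA KO area 3 was closer to the Control areas than to the other HIRA KO areas. The mean rose from 834 CPM ± 162 (SD, n = 3) to 1684 CPM ± 494 (SD, n = 3). The log2 fold change was 1.12 (SE 0.20), a 2.17-fold difference with an approximate 95% interval from 1.65 to 2.86 (edgeR, adjusted p = 0.000848). The call was lost without Control area 3 (log2 fold change 1.02, adjusted p = 0.0555) and in stellate-like cells of a second clustering that used the 6 collagens (0.66, adjusted p = 0.321). Col6a3 was 1 of 4 genes called in these cells, 0.401% of the 998 tested, and the only collagen called among the 6.

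**Figure D3:**
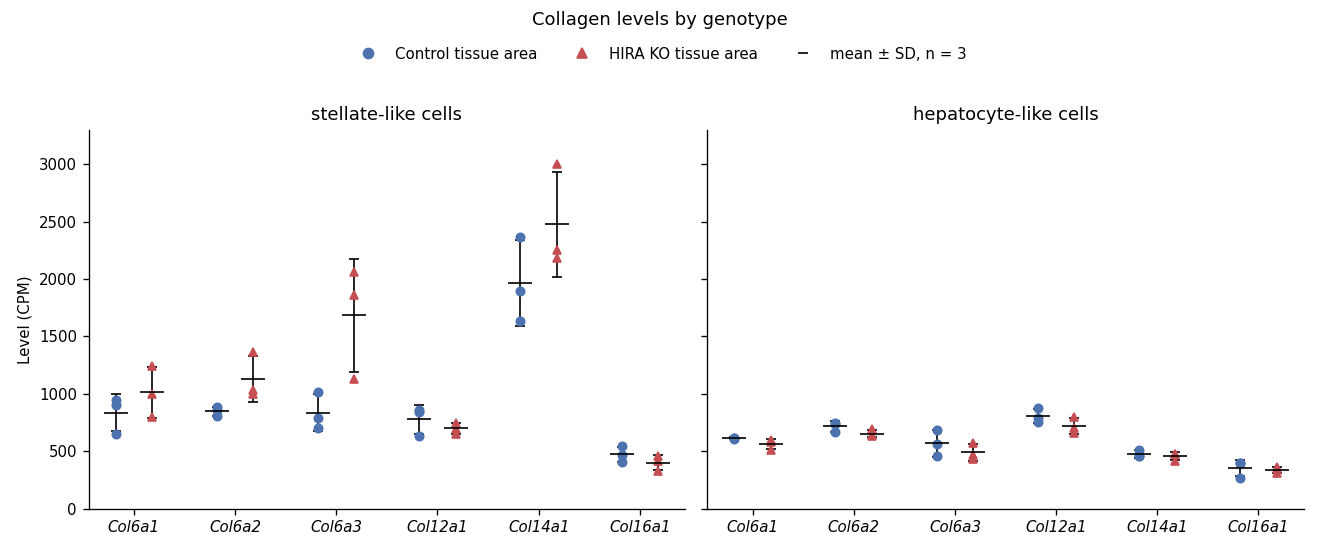
Level of each collagen in CPM in stellate-like cells (left) and hepatocyte-like cells (right), with 1 point per tissue area (circles, Control; triangles, HIRA KO) and the mean ± SD of 3 areas. In stellate-like cells Col6a3 ran from 701 to 1014 CPM in Control and from 1126 to 2066 CPM in HIRA KO, whereas in hepatocyte-like cells the genotypes overlapped for Col6a3.

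The other collagen VI chains did not pass the test in stellate-like cells. Col6a2 was 802, 860 and 882 CPM in Control and 1035, 1361 and 995 CPM in HIRA KO, so that the groups did not overlap. Its log2 fold change was 0.48 (SE 0.18, edgeR, unadjusted p = 0.0105, adjusted p = 0.347). Col6a1 was 651, 948 and 906 CPM in Control and 796, 1002 and 1240 CPM in HIRA KO, with overlapping groups and a log2 fold change of 0.30 (SE 0.19, edgeR, adjusted p = 0.762). HIRA KO areas lay wholly above Control areas for 2 of the 6 members, Col6a2 and Col6a3, and for 5.01% of all genes tested.

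The fibril-associated collagens did not pass either. For Col14a1 the log2 fold change was 0.37 (SE 0.21, adjusted p = 0.715 by edgeR), with HIRA KO area 1 (2180 CPM) and area 2 (2252 CPM) below Control area 3 (2368 CPM). The approximate 95% interval of its fold, from 0.963 to 1.73, still holds a rise of more than 1.5-fold. The values were -0.07 for Col12a1 (SE 0.19, adjusted p = 0.928 by edgeR) and -0.17 for Col16a1 (SE 0.23, adjusted p = 0.882 by edgeR).

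The ratio of Col6a3 to Col6a1, which does not depend on the total count, was 1.21, 1.07 and 0.773 in stellate-like cells of the Control areas and 2.34, 2.06 and 0.908 in those of the HIRA KO areas. The difference in the mean log2 ratio was 0.71, and HIRA KO area 3 lay among the Control areas (exact permutation test, two-sided, p = 0.3, where 0.1 is the smallest possible). In mesenchymal-like cells the difference was 0.60 (exact permutation test, p = 0.3), and in all kept cells it was 0.15 (exact permutation test, p = 0.5). For Col6a2 to Col6a1 the differences were 0.13, 0.02 and -0.10 (p = 0.8, 0.9 and 0.3, exact permutation test). With 3 areas a group this test could not pass at 0.05. Within slide rows the log2 ratio of Col6a3 to Col6a1 was higher in HIRA KO in 3 of 3 rows, by 0.95, 0.95 and 0.23 in stellate-like and by 0.57, 0.98 and 0.27 in mesenchymal-like cells, and that of Col6a2 to Col6a1 in 2 of 3 rows in each.

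In mesenchymal-like cells as a whole, Col6a3 rose as well. It was 894, 892 and 676 CPM in Control and 1605, 1837 and 1058 CPM in HIRA KO, with a log2 fold change of 0.96 (SE 0.18, edgeR, adjusted p = 0.0111), 1 of 4 genes called, again 0.401% of 998. Col6a2 was 801, 937 and 896 CPM in Control and 979, 1205 and 975 CPM in HIRA KO, with a log2 fold change of 0.33 that did not pass (SE 0.15, adjusted p = 0.698 by edgeR). The Col6a3 call was lost when Control area 1, 2 or 3 or HIRA KO area 2 was left out, with log2 fold changes from 0.80 to 1.04 and adjusted p from 0.118 to 0.186. In fibroblast-like cells 3 of the 6 members passed the filter on low counts, and 0 of these 3 were called by edgeR, with 0 at an unadjusted p under 0.05 and 0 by DESeq2, beside 0 of 376 genes tested (0%). Col6a3 there was 1643, 872 and 372 CPM in Control and 1380, 906 and 1304 CPM in HIRA KO, a spread between Control areas that was wider than the difference of the means.

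In hepatocyte-like cells, the class targeted by the deletion, 0 of the 6 members were called by edgeR or by DESeq2 and 0 had an unadjusted p under 0.05, beside 10 of 998 genes (1.0%). Col6a3 was 563, 688 and 455 CPM in Control and 574, 467 and 434 CPM in HIRA KO, a log2 fold change of -0.14 (SE 0.14, adjusted p = 0.757, edgeR), at a level 1.13 times that of the negative probes. Col6a1 was 613, 619 and 603 CPM in Control and 512, 594 and 584 CPM in HIRA KO before TMM scaling. After TMM scaling its log2 fold change was 0.01 (SE 0.12, adjusted p = 0.994 by edgeR). The difference between the genotype effects in stellate-like and in hepatocyte-like cells was fitted in 1 model with the area as a block, a test chosen after the values had been seen. For Col6a3 this difference was 1.19 on the log2 scale (SE 0.19, edgeR, adjusted p = 0.00165), and 9 of 998 genes passed (0.902%). For Col6a2 it was 0.50 (SE 0.17, adjusted p = 0.241, edgeR), for Col6a1 0.29 (SE 0.19) and for Col14a1 0.29 (SE 0.18).

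The Col6a3 difference was spread over cells and fields of view. A count of Col6a3 was found in 6.80%, 9.97% and 6.53% of stellate-like cells in the Control areas and in 16.5%, 18.6% and 11.7% in the HIRA KO areas, against 5.01% to 10.9% of hepatocyte-like cells, which were deeper. Median counts per cell were 88 to 110 in stellate-like and 111 to 204 in hepatocyte-like cells. After each cell was thinned to 50 counts (384 Control and 439 HIRA KO stellate-like cells with fewer were left out), the shares in stellate-like cells were 3.57%, 7.34% and 3.14% in Control and 8.81%, 9.95% and 5.12% in HIRA KO, so that Control area 2 lay above HIRA KO area 3, and in hepatocyte-like cells they were 2.15% to 3.52%. The 10 stellate-like cells with most Col6a3 held 14.4%, 11% and 31.9% of its counts in the HIRA KO areas, and no cell held more than 4. Over fields of view the median level was 708, 979 and 632 CPM in the Control areas and 1723, 2074 and 1052 CPM in the HIRA KO areas.

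**Figure D4:**
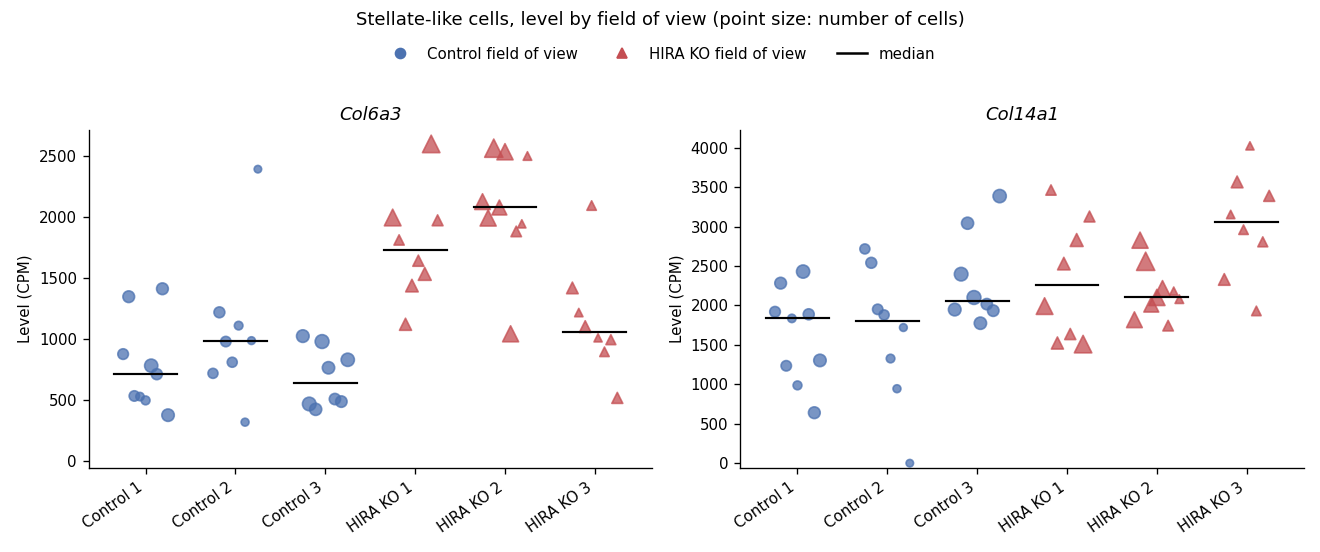
Level of Col6a3 (left) and Col14a1 (right) in stellate-like cells of single fields of view, in CPM, for 3 Control areas (circles) and 3 HIRA KO areas (triangles), with the size of a point growing with the number of cells and a line at the median of the area. The medians of Col6a3 were 632 to 979 CPM in Control and 1052 to 2074 CPM in HIRA KO, and some fields of view of each HIRA KO area lay below the highest Control fields of view.

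The areas differed in how close stellate-like cells lay to cholangiocyte-like cells, named for the cells of bile ducts. These made up 2.21% to 8.65% of cells per area. The paper reports an expansion of cholangiocytes in HIRA KO livers and their formation from hepatocytes. Distance to such a cell thus depends on their number and need not mean the same place in the tissue in both genotypes. Within 500 pixels of one lay 49.5%, 23% and 33.5% of the stellate-like cells in the Control areas and 82.0%, 90.1% and 29.6% in the HIRA KO areas. The Col6a3 level was therefore compared within bins of distance, a comparison added after the values had been seen. Within 250 pixels it was 943, 516 and 455 CPM in Control and 2052, 2355 and 1523 CPM in HIRA KO, but the Control values rested on 15, 2 and 5 counts. From 250 to 500 pixels it was 693, 1529 and 1064 CPM against 1732, 1764 and 1386 CPM, and the groups overlapped. Beyond 500 pixels it was 756, 983 and 652 CPM against 1561, 1276 and 1004 CPM. The groups were separate in the nearest and the farthest bin (exact permutation test, p = 0.1 each, the smallest possible). The fold of the means was 3.10, 1.49 and 1.61 from near to far. Such a separation was not particular to Col6a3. It was also found for Col6a2 within 250 pixels (fold of the means 1.61, on 13, 4 and 9 Control counts). Col14a1 was separate from 250 to 500 pixels (1.74) and Col6a1 beyond 500 pixels (1.63). The nearest bin of Control area 2 held only 38 cells.

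Stellate-like cells of HIRA KO areas also carried more counts of genes from the list of fibroblast markers. The summed level of the 10 listed fibroblast markers on the panel, which include the fibrillar collagen genes Col1a1, Col1a2 and Col3a1, ran from 9787 to 11450 CPM in Control and from 15810 to 19750 CPM in the other genotype (p = 0.1, exact permutation test). For 6 of the 10 every HIRA KO area was above every Control area, beside 5.01% of the 998 genes tested. The summed level of 11 hepatocyte markers ran from 27220 to 33450 CPM and from 34840 to 49980 CPM in the same cells (p = 0.1, exact permutation test). The stellate markers themselves ran from 43380 to 56010 CPM in Control and from 35900 to 47670 CPM in HIRA KO, with overlap (p = 0.3, exact permutation test). The only other marker list with separate groups was that of 4 neutrophil markers, which was lower in HIRA KO. It ran from 1984 to 2286 CPM in Control and from 1729 to 1911 CPM in HIRA KO (p = 0.1, exact permutation test). The part of these shifts in the Col6a3 result was not tested.

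Col6a3 was therefore also read within bins of fibrillar collagen share, a comparison added after the values had been seen. Stellate-like cells were split by the share of Col1a1, Col1a2 and Col3a1 in their counts at limits common to all areas, and these 3 genes were left out of the totals. In cells with no count of the 3 genes (266 to 571 per area), Col6a3 was 739, 888 and 745 CPM in Control and 1708, 1932 and 1043 CPM in HIRA KO, so that the groups were separate (exact permutation test, p = 0.1, the smallest possible). This bin held 456 of 677, 282 of 391 and 571 of 812 stellate-like cells in Control and 458 of 910, 571 of 1207 and 266 of 486 in HIRA KO. At this depth a cell without a count may still express the genes, so their level was not matched in this bin. In cells with a share up to the median of 1.33%, where the summed level of the 3 genes was alike (7057 to 7895 CPM in Control and 7079 to 7363 CPM in HIRA KO), Col6a3 was 783, 1389 and 616 CPM against 1316, 1547 and 923 CPM, and the groups overlapped (p = 0.3, exact permutation test). In cells above the median it was 1163, 777 and 654 CPM against 3085, 3186 and 1676 CPM, but the Control values rested on 7, 2 and 5 counts, and the summed level of the 3 genes was still higher in HIRA KO (26100 to 29940 against 21300 to 22630 CPM).

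The separation above the median share was not particular to Col6a3. Col6a2 was 1329, 1165 and 1047 CPM there in Control and 1474, 1711 and 1836 CPM in HIRA KO, and Col14a1 was 1994, 1942 and 1701 CPM against 2394, 2242 and 3592 CPM, both without overlap and both on few Control counts (3 to 13 per area). Col14a1 was also separate up to the median share (1409, 899 and 1847 CPM against 2303, 1848 and 2564 CPM). In cells with no count of the 3 genes, the groups overlapped for the other 5 members. How many of all genes were separate in these bins, or in the bins of distance, was not counted.

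**Figure D5:**
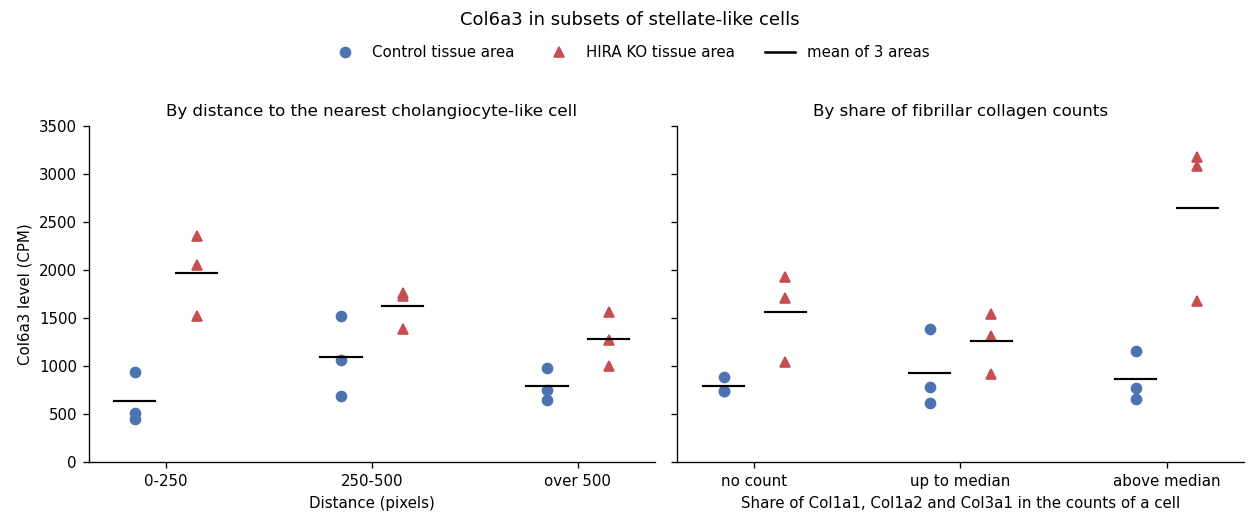
Col6a3 level in stellate-like cells, in CPM, by distance to the nearest cholangiocyte-like cell in pixels (left) and by the share of Col1a1, Col1a2 and Col3a1 in the counts of a cell, at limits common to all areas (right), with 1 point per tissue area (circles, Control; triangles, HIRA KO) and a line at the mean of 3 areas. HIRA KO areas lay above all Control areas within 250 pixels, beyond 500 pixels, in cells with no such count and in cells above the median share, and overlapped with them in the other subsets.

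How the result depended on the clusters was tested with a second clustering in which the 6 collagens took part. It formed 2416 fibroblast-like cells led by Col3a1 and Col1a1, and left 3116 stellate-like cells. The regrouping was uneven between genotypes. Stellate-like cells went from 677, 391 and 812 to 563, 333 and 724 in the Control areas and from 910, 1207 and 486 to 474, 659 and 363 in the HIRA KO areas. Fibroblast-like cells went from 138, 79 and 117 to 284, 151 and 256 in Control and from 176, 217 and 62 to 677, 826 and 222 in HIRA KO. In those stellate-like cells Col6a3 was 707, 928 and 715 CPM in Control and 1267, 1336 and 898 CPM in HIRA KO, a log2 fold change of 0.66 that did not pass (edgeR, adjusted p = 0.321). In the fibroblast-like cells of the second clustering it was 1827, 1659 and 1164 CPM against 2255, 2543 and 1911 CPM (log2 fold change 0.61, adjusted p = 0.553, edgeR). Over mesenchymal-like cells of the second clustering the call held, with a log2 fold change of 0.85 (adjusted p = 0.0155, edgeR).

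Among the other collagens on the panel, 2 of 17 were called in stellate-like cells, both upward, and 0 downward. Col1a1, a chain of collagen I, the main fibrillar collagen, was 1166, 1036 and 1232 CPM in Control and 3424, 3689 and 2675 CPM in HIRA KO (log2 fold change 1.55, SE 0.21, edgeR, adjusted p = 9.32e-06). Col3a1, the collagen III chain, was 1029, 727 and 1329 CPM against 2289, 3040 and 2529 CPM (1.36, SE 0.22, adjusted p = 0.000122, edgeR). Both genes took part in the clustering and were among the leading genes of the stellate-like cluster. Col9a2, a chain of another fibril-associated collagen, had the lowest p among those lower in HIRA KO (log2 fold change -0.65, SE 0.19, adjusted p = 0.148, edgeR). The median log2 fold change of the 17 was 0.11, of the 6 members 0.33 and of all genes -0.02.

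Genes of matrix partners and receptors, of matrix enzymes and of growth factor signalling gave no call in stellate-like cells. Of 15 partners and receptors tested, 0 were called by edgeR and 1 had an unadjusted p under 0.05, which was Lum (lumican, log2 fold change 0.76, SE 0.19, adjusted p = 0.0517, edgeR). In mesenchymal-like cells Lum was called (0.76, SE 0.17, adjusted p = 0.0416, edgeR). Of the 7 enzymes and chaperones, 0 were called and 2 had an unadjusted p under 0.05, the lowest for Serpinh1, the collagen chaperone HSP47 (0.48, SE 0.20, adjusted p = 0.516, edgeR). Of 15 genes of TGF-beta and PDGF signalling, 0 were called and 2 had an unadjusted p under 0.05, the lowest for Tgfb2 (0.57, SE 0.21, adjusted p = 0.345, edgeR). The median log2 fold change of the 3 lists was 0.08, 0.23 and 0.04.

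Position was examined for all members by comparing cells near to and far from cholangiocyte-like cells. Within 500 pixels against beyond 1500 pixels, 0 of 6 members passed in all other cells (exact sign-flip test over areas, none with p under 0.05). For mesenchymal-like cells that comparison was void, since 2 HIRA KO areas had only 3 and 6 such cells beyond 1500 pixels. With the added limits of 250 and 500 pixels, 0 of 12 tests passed after adjustment. Col6a3 had the only p at the smallest possible value, with a level 0.34 higher near on the log2 scale (SD 0.22) in all other cells, in 6 of 6 areas (exact sign-flip test, p = 0.0312, adjusted p = 0.375). Mesenchymal-like cells were a larger share of near than of far cells in every area. In Control area 1 they were 376 of 1824 near cells and 443 of 4034 far cells. The part of this in the Col6a3 difference was not tested. In mesenchymal-like cells Col6a2 was 0.41 higher near (SD 0.47, 5 of 6 areas) and Col6a3 0.29 higher near (SD 0.40, 5 of 6 areas), both with p = 0.125 (exact sign-flip test), and Col14a1 differed by -0.09 (SD 0.59, 4 of 6 areas higher near).

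The share of transcripts lying over nuclei was also read for each member. Of transcripts in cells, 48.1% ± 3.84 of all genes lay in the nucleus (SD, n = 6). For Col6a3 the share was 52.4% ± 5.15, above that of all genes in 6 of 6 areas, and for Col6a2 it was 50.4% ± 7.25, above in 4 of 6. For Col6a1, Col12a1, Col14a1 and Col16a1 it was 40.2%, 37.4%, 39.8% and 40.7%, below that of all genes in 6 of 6 areas each (exact sign-flip test, p = 0.0312 for each of these 4 and for Col6a3, the smallest possible, adjusted p = 0.0536 over 12 tests). Outside segmented cells lay 6.84% ± 1.26 of all transcripts, and 6.17% (Col6a3) to 8.61% (Col12a1) of those of the members. Between genotypes, p ran from 0.3 to 1 over the members in these shares (exact permutation test). The smallest p this test can give here is 0.1, so no difference could have passed at 0.05 and none is excluded. For Col6a3 the nuclear share was 53.9%, 61.3% and 49.4% in the Control areas and 52.1%, 51.9% and 46% in the HIRA KO areas. For all genes it was likewise lower in HIRA KO, at 52.2%, 52.8% and 47.1% in Control and 46.8%, 47.3% and 42.4% in HIRA KO.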

How the data were processed

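For each segmented cell the authors deposited counts of every target as the imaging platform decoded them, not normalized, with a table of single transcripts. Per the file headers, further tables give cell areas and positions in pixels on the slide. Versions of the imaging and segmentation software and the pixel size are not given in the sources used here. The authors' later normalization was not applied to these counts. The members, lists and tests were chosen with earlier results of these data known.

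Replicates are areas, and p-values measure the spread between them. Fields of view were joined into 6 tissue areas by genotype and number, and for 50 of 50 the nearest other field of view was in the same area. Of 52132 cells, 2215 with fewer than 20 counts and 252 with an area over 5 times the geometric mean were left out. Cells were clustered without the 6 collagens, from 30 principal components of Pearson residuals (theta 100, limit 10), in a graph of 20 neighbours (leidenalg 0.10.2, resolution 1.6). A cluster took a name from at least 3 raised markers, at least 1 of them among its top 10 genes. Doublets were not called. Barcodes are not shared, since each cell belongs to 1 field of view.

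The sums of counts in each area and class were tested with edgeR 4.0.16 (TMM scaling, filterByExpr, quasi-likelihood, R 4.3.3), Benjamini-Hochberg adjusted over all genes and called under 0.05. SEs were derived from the F statistic and approximate 95% intervals are 1.96 SE. Scripts were tested on simulated data. DESeq2 1.42.0, limma 3.58.1 (voom on fields of view with the area as a random block), other scalings, filters and clusters, the slide row as a block and leaving out each area were the alternatives. Levels were compared on log2(CPM + 10) by exact tests over areas (scipy 1.17.1 and numpy 2.4.6 with all sign flips or splits listed). Genes named are the members, the 3 genes most like each member over clusters, and the called or lowest-p genes of 4 fixed lists. Depth limits all member values: single areas held 39 to 326 counts of a collagen VI chain or Col14a1 in stellate-like cells.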

Additional observations from a re-analysis of the deposited data

Results flagged for a closer look

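Each member's level per field of view was examined within each area for a single value far from the others (a gap to the nearest value larger than Dixon's 95% critical share of the range), in all kept cells and in stellate-like cells, 72 groups in all. Chance flags about 1 in 20 such groups, and 4 were flagged, all in stellate-like cells and all resting on few counts. Col6a3 in Control area 2 was 2388 CPM in field of view 25 (7 counts in 28 cells), with the next value at 1215 CPM. Col6a3 in HIRA KO area 2 was 1039 CPM in field of view 31 (23 counts in 172 cells), with the next value at 1878 CPM. Col16a1 in Control area 1 was 987 CPM in field of view 5 (6 counts in 44 cells). Col12a1 in HIRA KO area 2 was 0 CPM in field of view 33 (0 counts in 36 cells).

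The genotype effect on Col6a3 differed between stellate-like and hepatocyte-like cells by 1.19 on the log2 scale (SE 0.19, edgeR interaction term with the area as a block, adjusted p = 0.00165). This test was chosen after the values had been seen. In stellate-like cells every HIRA KO area lay above every Control area, so the order within slide rows adds nothing to it.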

How the results depend on the processing

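The count of collagens called in stellate-like cells, 1 (Col6a3), was kept under 11 of 13 alternatives, with log2 fold changes from 0.66 to 1.28 and adjusted p (edgeR, DESeq2 or limma) from 1.25e-06 to 0.321. It fell to 0 with clusters made with the 6 collagens (0.66, adjusted p = 0.321), and ranged from 0 to 1 when single areas were left out, with the loss on leaving out Control area 3 (1.02, adjusted p = 0.0555). In mesenchymal-like cells the count was 1 under 9 of 13 alternatives and ranged from 0 to 1 when single areas were left out, with the loss on leaving out any single Control area (log2 fold changes 1.04, 0.999 and 0.85) or the second HIRA KO area (0.80). The cause was not tested. Leaving out the filter on low counts tested the same 998 genes in both classes. That alternative repeated the main test and adds nothing to these counts. No called value changed sign, and the counts of members called in all cells, fibroblast-like cells and hepatocyte-like cells stayed at 0. Of the alternative values for single members, 589 were labelled the same, 6 weaker and 6 moved. The same means that direction and side were kept, or that the direction changed by less than the SE or SD of the main value.

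Calls over all genes depended more on the method. In stellate-like cells they numbered 4 by edgeR, 25 after blocking on slide row, 10 by DESeq2, 37 by limma-voom on fields of view, 7 with a minimum of 50 counts per cell and 0 with clusters made with the 6 collagens. In all cells they were 2, against 17 with the block, 10 by DESeq2 and 11 by limma-voom. In mesenchymal-like cells they were 4, against 7, 7 and 17, and in hepatocyte-like cells 10, against 41 with the block and 31 by limma-voom. In fibroblast-like cells they were 0, against 4 by limma-voom. A minimum of 50 counts per cell left 1 and library size only 4 in hepatocyte-like cells. Leaving out single areas gave 2 to 9 calls in stellate-like, 1 to 5 in mesenchymal-like, 1 to 3 in all, 0 to 3 in fibroblast-like and 2 to 9 in hepatocyte-like cells. With library size as the only scaling, the median of all genes went to -0.12 in all cells and in hepatocyte-like cells (log2). The labels give the genotypes no shared replicate numbers, so pairing was by slide row only, and that block changed no call among the 6 collagens. Fibroblast-like cells were not compared with a minimum of 50 counts per cell, since no such cluster formed. Sparse counts, with 39 to 326 per area for a collagen VI chain or Col14a1 in stellate-like cells, limit all values.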
